A study of Mus musculus with 10 samples.

Results

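Spp1, Gpnmb, Lgals3, Igf1 and Fabp5, 5 genes of tissue repair and lipid handling in phagocytes, were followed in microglia and macrophages of injured and uninjured mouse optic nerve and retina. They were taken as a fixed list by gene symbol and make up 5 of the 52181 gene entries of the deposited table, or 5 of the 16620 entries that held any unique molecular identifier (UMI, the tag that counts RNA molecules in droplet sequencing). Each gene was measured in every library and condition, and its detection together with the other members was counted cell by cell. All animals were Wildtype mice of the 129S1/SvlmJ strain, of both sexes, collected at 10 weeks, and the strain label also reads (P56). The injured groups had received an optic nerve crush, which injures the axons of retinal ganglion cells, at 8 weeks, 2 weeks before collection, and the uninjured groups had received none. Injured optic nerve had 2 libraries (1 and 3), uninjured optic nerve 2 (2 and 4), injured retina 2 (the pool of samples 1 and 2, and the pool of samples 3 and 4) and uninjured retina 2 (5 and 6).

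Osteopontin, the product of Spp1, is a secreted phosphoprotein that binds integrins and CD44 and is made by phagocytes in damaged nervous tissue. Insulin-like growth factor 1, from Igf1, is a secreted growth factor that acts through the receptor IGF1R on neurons and glia. Galectin-3, from Lgals3, is a sugar-binding protein found inside phagocytes and released by them. GPNMB is a transmembrane glycoprotein of lysosome-rich macrophages, and FABP5 is a cytosolic carrier of fatty acids. In mice these genes are known from phagocytes that clear myelin and cell debris, and Spp1 and Igf1 are also known for effects on the survival or regrowth of injured retinal ganglion cell axons.

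The table held 1168 cells and 7920570 UMIs. Libraries held 12 to 682 cells and 56838 to 5234954 UMIs, with median depths of 1078 to 12989 UMIs per cell, and injured optic nerve library 3 alone held 66.1% of all UMIs. Levels summed over a library are given as counts per 1000000 UMIs of that library (CPM). At least 8 of 9 microglia markers were detected in every library, with summed levels of 3527 to 14638 CPM, and Fcrls was at 0 in the injured retina pool of samples 3 and 4. Other cell types were present too. T-like cells, a cluster with T and NK cell markers, made up 20.2% and 42.1% of cells in the injured retina pools and 0 cells of uninjured retina. Oligodendrocyte-like cells made up 10.3% and 8.06% of cells in injured optic nerve libraries 1 and 3, against 25.2% and 14.3% in uninjured optic nerve libraries 2 and 4. Border macrophage-like cells, named from Mrc1, F13a1, Stab1 and related markers, made up 6.16% and 4.40% in injured optic nerve, against 43.7% and 3.57% in uninjured optic nerve. Endothelial-like, T-like and oligodendrocyte-like cells are called the non-myeloid cells here. Cells outside these classes and the border macrophage-like class are called the remaining myeloid cells. Both names are labels only: myeloid markers were not used to set the classes apart, so whether each cell is myeloid was not tested. Uninjured retina held UMIs in only part of the gene entries, which include all 5 members. Injured optic nerve libraries 1 and 3 shared 2 cell barcodes. Because whole libraries are compared, fewer cells of a type and less RNA per cell cannot be told apart in library sums.

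All 5 genes are protein-coding and lie on the plus strand of the mouse genome build GRCm38, in GENCODE M21. Spp1 is at chr5:104435118-104441050 and overlaps the gene model Gm42793 on the same strand. Gpnmb is at chr6:49036546-49070929, Lgals3 at chr14:47367751-47386160 and Fabp5 at chr3:10012548-10016607, and these 3 overlap no other annotated gene. Igf1 is at chr10:87858265-87937042 and overlaps Igf1os on the minus strand. Whether the counting used strand is not given in the sources used here, so reads of Igf1 and Igf1os, or of Spp1 and Gm42793, may not have been told apart. The RefSeq table of promoters on GRCm38.p6 (250 bases before to 50 bases after a gene's start) held 4 of the 5 members. It held no window for Fabp5, so the windows of the other 4 are shown. Both strands were searched for 5 motifs, and capitals mark the matches. The motif AGGAAGT is an ETS site of the PU.1 type. The motif TGANTCA is that of AP-1. The E-box CACGTG can be bound by MITF and TFE factors. The TATA box was searched as TATAAA. The GC box was searched as GGGCGG.
Spp1: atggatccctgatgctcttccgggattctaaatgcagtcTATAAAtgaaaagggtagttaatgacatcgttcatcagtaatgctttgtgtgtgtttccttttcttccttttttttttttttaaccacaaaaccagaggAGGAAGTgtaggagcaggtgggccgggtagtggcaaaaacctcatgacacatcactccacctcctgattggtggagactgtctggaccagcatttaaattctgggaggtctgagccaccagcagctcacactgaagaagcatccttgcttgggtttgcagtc
Gpnmb: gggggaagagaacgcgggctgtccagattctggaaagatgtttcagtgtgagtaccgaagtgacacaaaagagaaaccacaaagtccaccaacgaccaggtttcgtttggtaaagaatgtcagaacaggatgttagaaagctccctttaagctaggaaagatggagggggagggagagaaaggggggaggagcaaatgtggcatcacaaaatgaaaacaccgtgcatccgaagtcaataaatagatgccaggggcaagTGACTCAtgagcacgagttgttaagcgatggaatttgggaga
Lgals3: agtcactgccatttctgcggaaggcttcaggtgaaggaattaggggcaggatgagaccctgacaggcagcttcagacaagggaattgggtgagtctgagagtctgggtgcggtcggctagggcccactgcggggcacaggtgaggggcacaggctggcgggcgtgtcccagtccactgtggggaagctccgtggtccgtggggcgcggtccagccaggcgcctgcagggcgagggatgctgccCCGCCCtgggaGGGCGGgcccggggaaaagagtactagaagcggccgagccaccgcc
Igf1: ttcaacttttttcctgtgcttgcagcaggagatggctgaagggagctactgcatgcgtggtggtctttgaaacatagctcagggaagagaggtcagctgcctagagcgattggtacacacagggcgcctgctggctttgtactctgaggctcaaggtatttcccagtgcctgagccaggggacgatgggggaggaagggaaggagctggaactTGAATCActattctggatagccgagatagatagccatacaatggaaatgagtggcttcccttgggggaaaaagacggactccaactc

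The windows are chr5:104434861-104435160 for Spp1, chr6:49036268-49036567 for Gpnmb, chr14:47373610-47373909 for Lgals3 and chr10:87860861-87861160 for Igf1, all on the plus strand. The starts used for the Lgals3 and Igf1 windows lie inside the GENCODE gene spans given above. The Spp1 window held AGGAAGT at position -112 from the start and TATAAA at -211. An AP-1 match began at position 8 from the start in the Gpnmb window, as TGACTCA, and at position -37 from the start in the Igf1 window, as TGAATCA. The Lgals3 window held GGGCGG once on each strand. Among 32544 promoter windows of the same length, AGGAAGT occurred in 9.27%, TGANTCA in 7.79%, TATAAA in 13.6% and GGGCGG in 35.9%. CACGTG was in none of the 4 windows and in 7.17% of all windows. The GC content of the windows was 45.3% for Spp1, 47.7% for Gpnmb, 67.0% for Lgals3 and 52.3% for Igf1.

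Spp1 had the largest difference of mean ln values among the members in the optic nerve, while on log2(CPM + 1) that of Gpnmb, at 0 UMIs in both uninjured libraries, was larger (8.19 against 5.82). The Spp1 level was 866 CPM in injured optic nerve library 1 and 13887 CPM in library 3, against 37.0 CPM in uninjured optic nerve library 2 and 95.1 CPM in library 4. The injured libraries did not overlap the uninjured ones, but they differed 16.0-fold from each other. A Spp1 UMI was found in 27.4% of cells in injured library 1 and 87.1% in injured library 3, against 6.80% in uninjured library 2 and 3.57% (1 of 28 cells) in uninjured library 4. With each cell thinned to 1000 UMIs and shallower cells left out, the shares were 16.5% and 80.2% in injured libraries 1 and 3, against 4.76% and 0 of 19 cells in uninjured libraries 2 and 4. Thinning left out 67 and 201 cells of the injured libraries, and 19 and 9 cells of the uninjured libraries. Library 3 held 72700 of the 74233 Spp1 UMIs of the whole table, or 97.9%.

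Igf1, the other secreted growth-related factor, stood at 238 CPM in injured optic nerve library 1 and 554 CPM in library 3. In uninjured optic nerve it stood at 71.2 CPM in library 2, and library 4 held 0 Igf1 UMIs, which allows up to 35.7 CPM. Injured library 1 was thus 3.35-fold and injured library 3 7.79-fold above the higher uninjured library. Cells with an Igf1 UMI made up 17.1% and 56.6% in injured libraries 1 and 3, against 15.5% in uninjured library 2 and 0 of 28 cells in uninjured library 4, which by the limit of 3 counts used for every count of 0 allows a share of up to 10.7%. In cells thinned to 1000 UMIs these shares were 12.7% and 33.7%, against 4.76% and 0 of 19 cells. Of the 25 Igf1 UMIs of uninjured library 2, 21 lay in its 45 border macrophage-like cells. Its 30 remaining myeloid cells held 1 Igf1 UMI (13.3 CPM, 3.33% of cells). The 122 remaining myeloid cells of injured library 1 stood at 298 CPM, with an Igf1 UMI in 17.2%.

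Lgals3 had 245 CPM in injured optic nerve library 1 and 978 CPM in library 3, against 59.8 CPM in uninjured optic nerve library 2 and 11.9 CPM (1 UMI) in library 4. Its UMIs were found in 18.5% and 59.97% of cells in injured libraries 1 and 3, against 9.71% and 3.57% in uninjured libraries 2 and 4. Thinning gave 13.9% and 41.6% for the injured libraries, against 7.14% and 0 of 19 cells for the uninjured ones.

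Gpnmb was detected in injured optic nerve only among the 4 optic nerve libraries. It had 59.6 CPM (19 UMIs) in injured library 1 and 1362 CPM (7130 UMIs) in injured library 3, whereas uninjured libraries 2 and 4 held 0 UMIs, which allows up to 8.54 and 35.7 CPM. Against the higher of these limits, Gpnmb was at least 1.67-fold higher in injured library 1 and at least 38.2-fold higher in injured library 3. Its UMIs were found in 5.48% and 48.2% of the injured cells, against 0 cells of uninjured libraries 2 and 4, which allows shares of up to 2.91% and 10.7%.

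Fabp5 differed least clearly. It had 279 CPM in injured optic nerve library 1 and 1309 CPM in library 3, against 171 CPM in uninjured optic nerve library 2 and 119 CPM in library 4. Injured library 1 was only 1.64-fold above uninjured library 2, and fewer of its cells held a Fabp5 UMI. The shares were 21.9% and 61.0% in injured libraries 1 and 3, against 27.2% and 14.3% in uninjured libraries 2 and 4. In cells thinned to 1000 UMIs they were 19.0% and 45.9%, against 13.1% and 5.26%.

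**Figure D1:**
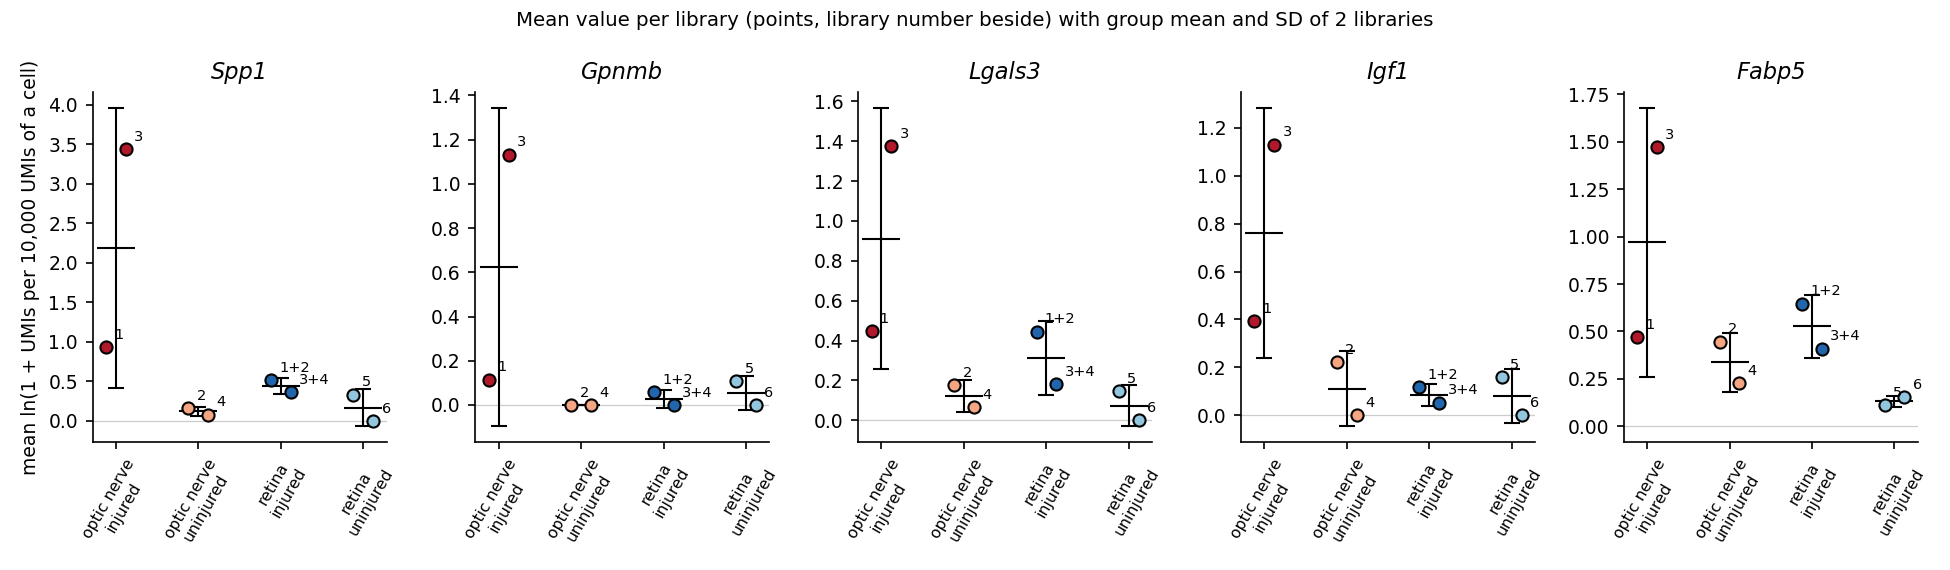
Mean per library of the ln value of a cell, ln(1 + UMIs of the gene per 10,000 UMIs of the cell), for each member. Points are libraries with their number, and bars are the group mean and SD of 2 libraries. Injured optic nerve library 3 was the highest library for all 5 genes, with a Spp1 mean of 3.44 against 0.94 in injured library 1.

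Injury in the optic nerve was tested with limma on the mean ln value per library, where an effect is a difference of mean ln values (injured minus uninjured) and all 8 libraries share 1 estimate of the spread. A gene was called at a Benjamini-Hochberg adjusted p under 0.05 over the 5298 genes tested, and 0.566% of those genes were called, 0.359% higher and 0.208% lower after injury. Of the 5 members, Spp1 was called higher, by 2.07 ± 0.45 (SE, n = 2 libraries against 2, limma adjusted p = 0.0413), and its effect was the second largest of all genes tested. The other 4 members had positive effects that were not called. Lgals3 differed by 0.79 ± 0.19 (limma adjusted p = 0.0819), Igf1 by 0.65 ± 0.16 (0.0819), Gpnmb by 0.62 ± 0.19 (0.221) and Fabp5 by 0.63 ± 0.21 (0.302). In all 5 members both injured libraries lay above both uninjured libraries by mean ln value, which was so for 13.5% of the genes tested. Gpnmb passed the filter, a UMI in 10% of all cells, through injured optic nerve library 3, which held 58.4% of cells. It was found in 48.2% of that library's cells and in at most 8.26% of cells of any other library. With equal weight of libraries in the filter, Gpnmb was not tested.

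These calls depended on single libraries. Without injured optic nerve library 1 the Spp1 effect was 3.32, and without injured optic nerve library 3 it was 0.81. Either fit leaves 1 injured optic nerve library, whose spread is taken from the other groups, so its p-values are not given. Here and below, every other fit with 1 library left out has the same limit for that library's group. The Spp1 call was lost without uninjured optic nerve library 2 (2.11, limma adjusted p = 0.224), without uninjured optic nerve library 4 (2.03, 0.271), and without either injured retina pool (2.07 in both, with limma adjusted p = 0.144 and 0.130), which in this fit add to the estimate of the spread. In cells thinned to 1000 UMIs no member was called in this comparison (Spp1 1.89, limma adjusted p = 0.416). edgeR's quasi-likelihood test on UMIs recovered from the ln values and summed over all 8 libraries called Spp1 (adjusted p = 0.0454), Gpnmb (0.0474) and Lgals3 (0.0474). The same test on the 4 optic nerve libraries alone called 0 genes, with 458 genes at an unadjusted p under 0.05 and an adjusted p of 0.215 for Spp1.

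**Figure D2:**
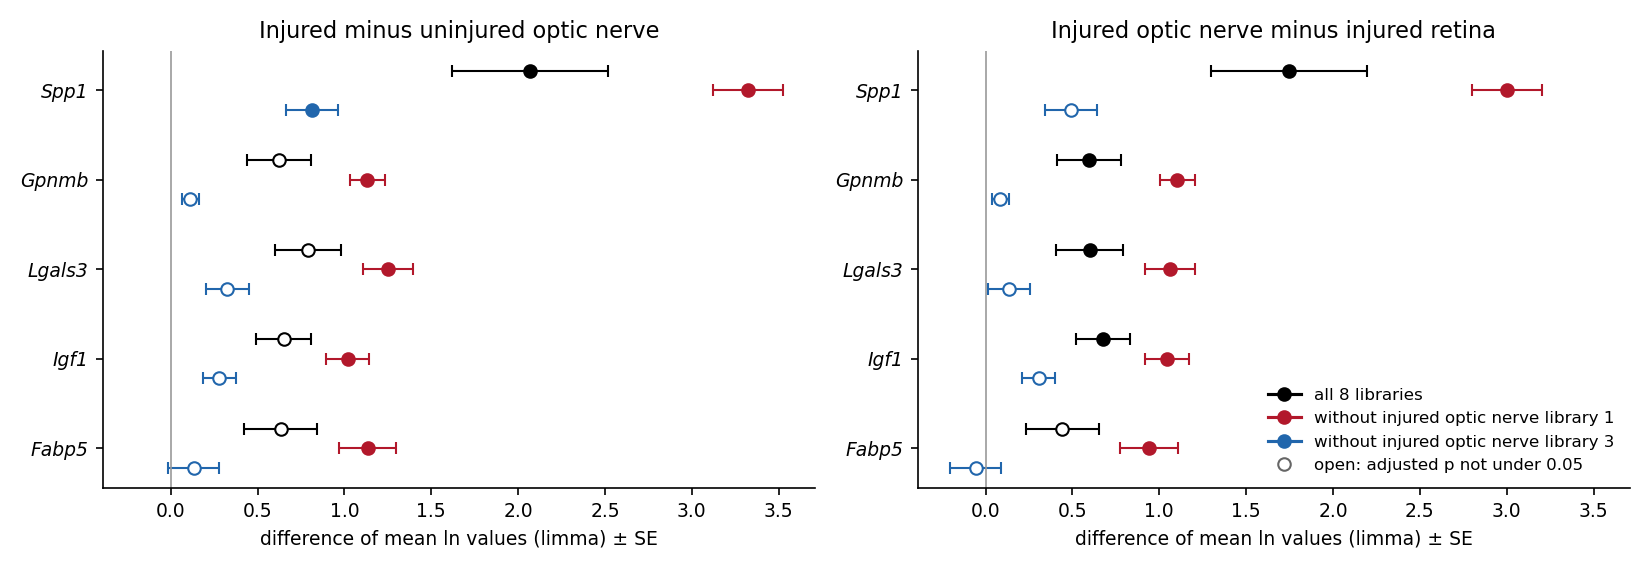
Differences of mean ln values with standard errors from limma, for injured minus uninjured optic nerve on the left and injured optic nerve minus injured retina on the right. Black points use all 8 libraries, red points leave out injured optic nerve library 1 and blue points leave out library 3, and filled points had an adjusted p under 0.05. Every member's effect was larger without library 1 and smaller without library 3, as for Spp1 on the left with 3.32 and 0.81.

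The 2 injured optic nerve libraries were therefore set side by side. Summed over the library, library 3 exceeded library 1 by 16.0-fold for Spp1, 22.8-fold for Gpnmb, 4.69-fold for Fabp5, 4.0-fold for Lgals3 and 2.32-fold for Igf1. Their median depths were 2060.5 UMIs per cell in library 3 and 1078 in library 1. Among cells of 1000 to under 3000 UMIs the gap was still present. Spp1 stood at 10747 CPM in 196 such cells of library 3 and at 891 CPM in 55 of library 1, Gpnmb at 402 and 107 CPM, and Igf1 at 478 and 172 CPM. Among cells under 1000 UMIs, Spp1 stood at 10165 CPM in library 3 and 4422 CPM in library 1. Of the 276 Spp1 UMIs of library 1, 185 lay in these cells, 57 of them in 1 oligodendrocyte-like cell. At 3000 to under 10000 UMIs, Spp1 stood at 58.1 CPM in 19 cells of library 1 and 12510 CPM in library 3. At 10000 UMIs or more it stood at 15.8 CPM in 5 cells of library 1 and 14426 CPM in library 3. These deeper cells of library 1 were not above the 95.1 CPM of uninjured optic nerve library 4 as a whole. All 8 Spp1 UMIs of that uninjured library lay in 1 of its 6 cells of 3000 to under 10000 UMIs (220 CPM). In uninjured library 2, Spp1 stood at 6.52 CPM (1 UMI) in 26 cells of 3000 to under 10000 UMIs. Its 7 cells of 10000 UMIs or more held 0 Spp1 UMIs. In library 1 the share of cells with a Spp1 UMI was 32.8% under 1000 UMIs, 25.5% at 1000 to under 3000 UMIs and 15.8% (3 of 19 cells) at 3000 to under 10000 UMIs. In library 3 the same shares were 78.1%, 83.2% and 91.9%.

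**Figure D3:**
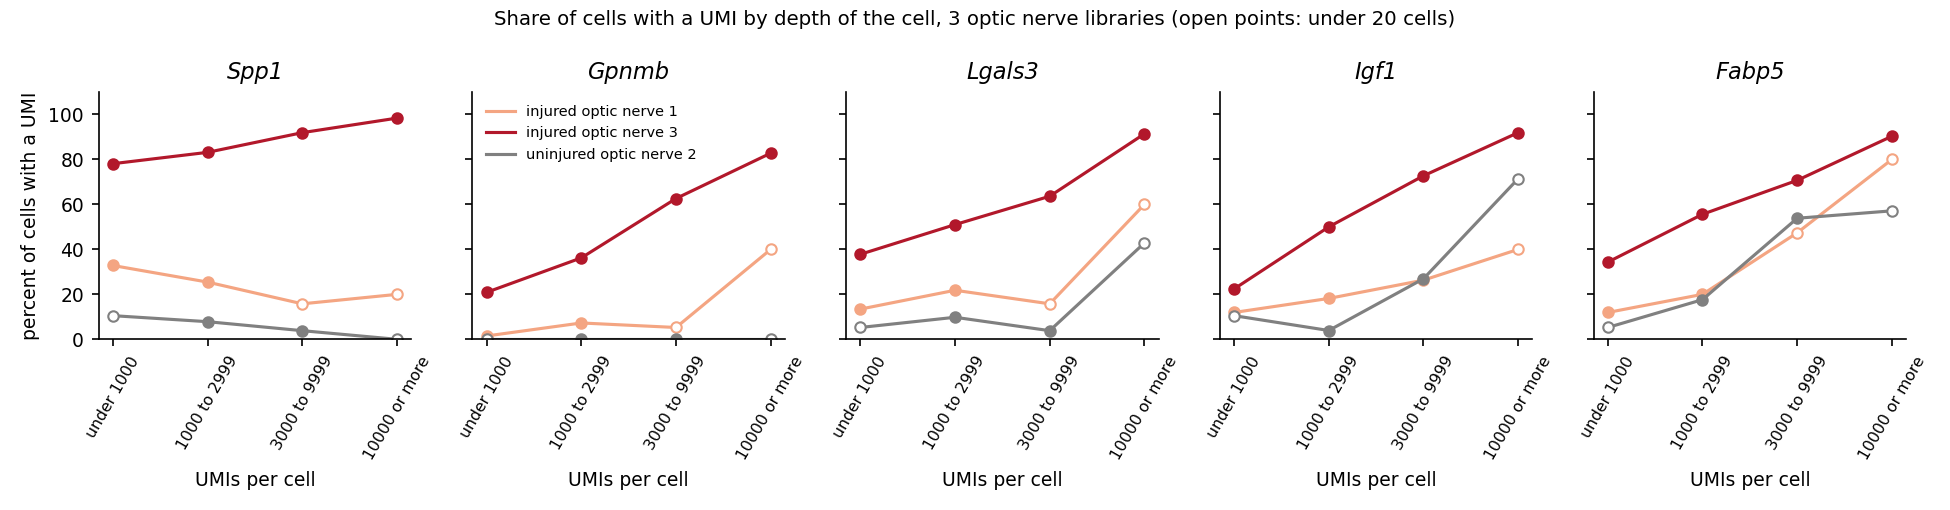
Percent of cells with a UMI of each member, by the total UMIs of the cell, in injured optic nerve libraries 1 and 3 and uninjured optic nerve library 2. Open points are bins of fewer than 20 cells. Library 3 lay above library 1 in every bin for all 5 genes, with Gpnmb in 36.2% and 7.27% of cells of 1000 to under 3000 UMIs.

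The cells were clustered without the 5 members, but genes correlated with them stayed in. Capg, Ccl6 and Cxcl14, the genes most like Spp1 across cells, were among the leading genes of cluster 6. The levels below are thus not independent of the clustering and serve as description. In library 3, Spp1 was found in each of the 167 cells of cluster 4 (leading genes Lyz2, Ms4a7, Mgst1 and Apoc1), at 15300 CPM and a median of 20724 UMIs per cell. This cluster held 171 cells in all, 167 of them from library 3, so it may be that library rather than a type. In the same cells Gpnmb was found in 87.4%, Lgals3 in 93.4%, Igf1 in 94.6% and Fabp5 in 95.8%. Cluster 6 (Cxcl13, Cst7, Tmsb4x and Ccl6) was present in both injured libraries, with 320 cells in library 3 and 94 in library 1. There Spp1 stood at 15511 CPM in library 3 and 1796 CPM in library 1, Lgals3 at 1053 and 301 CPM, and Igf1 at 561 and 228 CPM. Cluster 5 (leading genes Tnfaip2, Sbno2, Dennd4a and Cacna1a) held Gpnmb in 64.8% of 105 cells of library 3 and 14.8% of 27 cells of library 1. Clusters 4, 5 and 6 were left unnamed, with fewer than 3 markers of any list among their 50 leading genes. Cluster 4 held 1 border macrophage marker and cluster 5 held 1 monocyte marker.

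**Figure D4:**
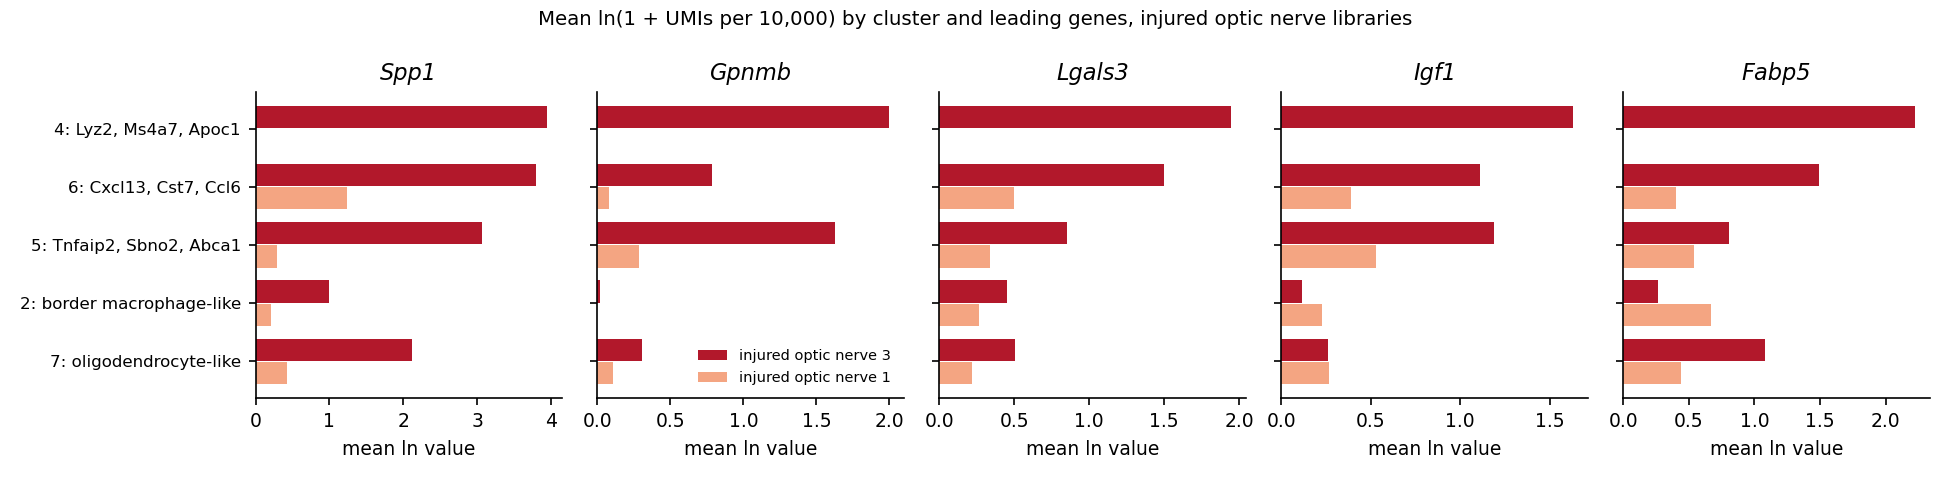
Mean ln value of each member by cluster in injured optic nerve library 3 (dark bars) and library 1 (light bars), for clusters with at least 5 cells in the library. Clusters are labelled by leading genes or by the marker list they matched. In library 3 the border macrophage-like cluster lay lowest for Gpnmb, Igf1, Lgals3, Fabp5 and Spp1, with a Spp1 mean of 0.995 against 3.95 in cluster 4.

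Members were also present in cells named for other types. In library 3, Spp1 was found in 63.6% of 55 oligodendrocyte-like cells (median 1193 UMIs) and 66.7% of 30 border macrophage-like cells (median 2555.5 UMIs), against 90.9% of the 592 remaining myeloid cells (median 2188 UMIs). Its levels there were 6575, 342 and 14772 CPM. Gpnmb was found in 14.5%, 3.33% and 54.1% of the same 3 classes. In library 1 the remaining myeloid cells (122 cells, median 973 UMIs) held Spp1 in 31.1% and Lgals3 in 19.7%. Both were in 6.67% (1 of 15) of the oligodendrocyte-like cells (median 2711 UMIs). Igf1 was found in 17.2% of the remaining myeloid cells and 13.3% (2 of 15) of the oligodendrocyte-like cells. Gpnmb, at 5.74% and 6.67%, and Fabp5, at 19.7% and 26.7%, were not above the oligodendrocyte-like share in library 1, so no expression is read from these shares. Their levels in the same cells were 77.8 and 27.6 CPM for Gpnmb and 311 and 221 CPM for Fabp5. By level the order for Spp1 in library 1 was reversed, with 925 CPM in the remaining myeloid cells and 1574 CPM in the oligodendrocyte-like cells. All 57 Spp1 UMIs of those oligodendrocyte-like cells lay in 1 cell. Over the whole table, 47 T-like cells (median 2422 UMIs) held 0 UMIs of Spp1, Gpnmb and Igf1, while 6.38% held Lgals3 and 12.8% held Fabp5. How far free RNA in the droplets adds to these shares was not tested. Without the non-myeloid cells, limma called Spp1 (adjusted p = 0.0210) and Lgals3 (0.0487) higher after injury in the optic nerve.

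In the retina none of the 3 members tested was called after injury. The test there was edgeR's quasi-likelihood test on UMIs summed over the 4 retina libraries, which called 19.7% of 3312 genes tested, 9.99% higher and 9.72% lower. Gpnmb and Igf1 had too few UMIs for its filter, so 3 of 5 members were tested. With no filter on low counts, edgeR called Gpnmb lower in injured retina, by -2.29 on the log2 scale (adjusted p = 0.0125). Spp1 had 574 and 788 CPM in the injured pools, against 1233 CPM in uninjured library 5 and 0 UMIs in uninjured library 6, which allows up to 52.8 CPM. The uninjured libraries thus lay on either side of the injured pools, and the log2 fold change was -0.08 ± 0.80 (SE, n = 2 libraries against 2, edgeR adjusted p = 0.965). Lgals3 had 122 and 41.8 CPM in the injured pools, against 70.0 CPM and 0 UMIs in uninjured libraries 5 and 6, with a log2 fold change of 0.91 ± 0.76 (edgeR adjusted p = 0.423). Fabp5 had 199.9 and 279.8 CPM in the injured pools, against 259 and 35.2 CPM in uninjured libraries 5 and 6, with a log2 fold change of 0.37 ± 0.49 (edgeR adjusted p = 0.631). Igf1 was low throughout, with 23.9 and 16.1 CPM in the injured pools, against 42.0 CPM (6 UMIs) and 0 UMIs in uninjured libraries 5 and 6. Gpnmb had 15.5 CPM (22 UMIs) and 0 UMIs in the injured pools, against 98.0 CPM (14 UMIs) and 0 UMIs in the uninjured libraries. By mean ln value both injured pools lay above both uninjured libraries for 3 members (Spp1, Lgals3 and Fabp5), as for 36.1% of genes.

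Retinal levels rested on very few cells. In uninjured library 5, 1 cell of 11844 UMIs held 160 of the 176 Spp1 UMIs, 13 of the 14 Gpnmb UMIs and all 37 Fabp5 UMIs, and it fell in cluster 4, the cluster that otherwise came almost wholly from injured optic nerve library 3. Without that cell, Spp1 in library 5 was 122 CPM and Gpnmb 7.64 CPM. In the injured pools 1 cell held 401 of 815 Spp1 UMIs and another 180 of 245, and neither held a UMI of Gpnmb, Lgals3 or Fabp5. Without those cells, Spp1 was 294 and 213 CPM in the injured pools. Shares of cells with a Spp1 UMI were 29.4% and 14.04% in the injured pools, against 9.68% (3 of 31) and 0 of 12 in uninjured libraries 5 and 6, and thinned to 1000 UMIs they were 11.9% and 8.77%, against 10.0% and 0 of 12. The sign of the Spp1 difference depended on which uninjured library was left out. With either left out, 1 uninjured library remains, which edgeR assumes to vary like the 2 injured pools, so these p-values hold only under that assumption. Without library 6, edgeR called Spp1 lower in injured retina, by -0.93 on the log2 scale (adjusted p = 0.0126), and Gpnmb lower, by -3.18 (0.00386). Without library 5, edgeR called Spp1, Lgals3 and Fabp5 higher (edgeR adjusted p = 5.05e-15, 0.00889 and 0.000962), against a library with 0, 0 and 2 UMIs of these genes, so the fitted folds are no measure of size.

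After crush, Spp1, Igf1 and Lgals3 were called higher in optic nerve than in retina with all 8 libraries, but not in several settings given below. Gpnmb was called too, in a test open to it only through injured optic nerve library 3. limma called 0.755% of genes higher in injured optic nerve than in injured retina, 12.7% lower and 13.5% in either direction. For Spp1 the difference of mean ln values was 1.75 ± 0.45 (limma adjusted p = 0.0189), for Igf1 0.68 ± 0.16 (0.0111), for Lgals3 0.60 ± 0.19 (0.0458) and for Gpnmb 0.59 ± 0.19 (0.0420). Fabp5 was not called, at 0.44 ± 0.21 (limma adjusted p = 0.168). Gpnmb was tested only because injured optic nerve library 3 carried it past the filter, so its call is no support apart from that library. By mean ln value both injured optic nerve libraries lay above both injured retina pools for Spp1, Igf1 and Lgals3, as for 4.91% of the genes tested. The same held for Gpnmb, which entered through that filter. In CPM, Spp1 had 866 and 13887 in injured optic nerve, against 574 and 788 in injured retina, and Igf1 had 238 and 554, against 23.9 and 16.1. Without injured optic nerve library 3 none of the 5 was called (Spp1 0.49, limma adjusted p = 0.0701, and Igf1 0.31, 0.0777). None of the 4 calls was made without the retina pool of samples 1 and 2 (limma adjusted p from 0.0822 to 0.195), without the pool of samples 3 and 4 (0.0860 to 0.256), or in cells thinned to 1000 UMIs (0.0990 to 0.321). Gpnmb and Lgals3 also lost the call without uninjured optic nerve library 2 (0.0793 and 0.0798) or library 4 (0.0702 and 0.0727). The injured retina pools held 20.2% and 42.1% T-like cells, and without the non-myeloid cells Igf1 was called at 0.69 (limma adjusted p = 0.00993) and Lgals3 was not called at 0.58 (0.0556). Among uninjured libraries no member was called between optic nerve and retina in limma's test, which called 10% of genes (1.77% higher and 8.25% lower in optic nerve), with adjusted p from 0.577 to 0.966. By mean ln value Fabp5 was the 1 member with both optic nerve libraries above both retina libraries, as for 17.1% of genes.

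Whether crush acted differently in the 2 tissues was tested by the interaction, the injury effect in optic nerve minus that in retina. It called 5.61% of genes (1.7% with a positive and 3.91% with a negative difference) and none of the members. The differences were 1.79 ± 0.64 for Spp1 (limma adjusted p = 0.104), 0.64 ± 0.22 for Igf1 (0.0926), 0.65 ± 0.26 for Gpnmb (0.144), 0.55 ± 0.27 for Lgals3 (0.231) and 0.24 ± 0.30 for Fabp5 (0.663). Without injured optic nerve library 1, Spp1, Gpnmb, Lgals3 and Igf1 were called, with limma adjusted p of 4.11e-08 to 0.00139.

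Co-detection of the members was counted in each cell. At least 3 of the 5 genes had a UMI in 63.3% of cells in injured optic nerve library 3 (432 of 682, exact Clopper-Pearson 95% interval 59.6% to 67.0%) and in 10.96% in injured library 1 (16 of 146, 6.40% to 17.2%). In uninjured optic nerve this was so in 1 cell of library 2 (0.971%) and 0 of 28 cells of library 4. That count of 0 allows a share of up to 10.7% by the limit of 3 counts, and up to 12.3% by the exact interval. In the injured retina pools it was so in 20.2% (22 of 109, 13.1% to 28.9%) and in 1 of 57 cells, against 2 of 31 and 0 of 12 cells in uninjured retina. All 5 genes were found together in 195 cells of injured optic nerve library 3 (28.6%), in 1 cell of injured library 1, in 3 cells of the first injured retina pool and in 1 cell of uninjured retina library 5, which is the cell with 160 Spp1 UMIs. These intervals cover counting error only.

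Depth moved these shares. With each cell thinned to 1000 UMIs, at least 3 members were found in 46.2% of cells of injured optic nerve library 3 (222 of 481), 7.59% of library 1 (6 of 79) and 2.75% of the first injured retina pool (3 of 109), whose median depth was 12989 UMIs. The same count was 0 of 84 and 0 of 19 cells in uninjured optic nerve, and 1 of 30 and 0 of 12 in uninjured retina. Thinned cells with none of the members made up 7.48% of injured optic nerve library 3 and 57.0% of library 1, against 73.8% and 94.7% in uninjured optic nerve libraries 2 and 4.

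**Figure D5:**
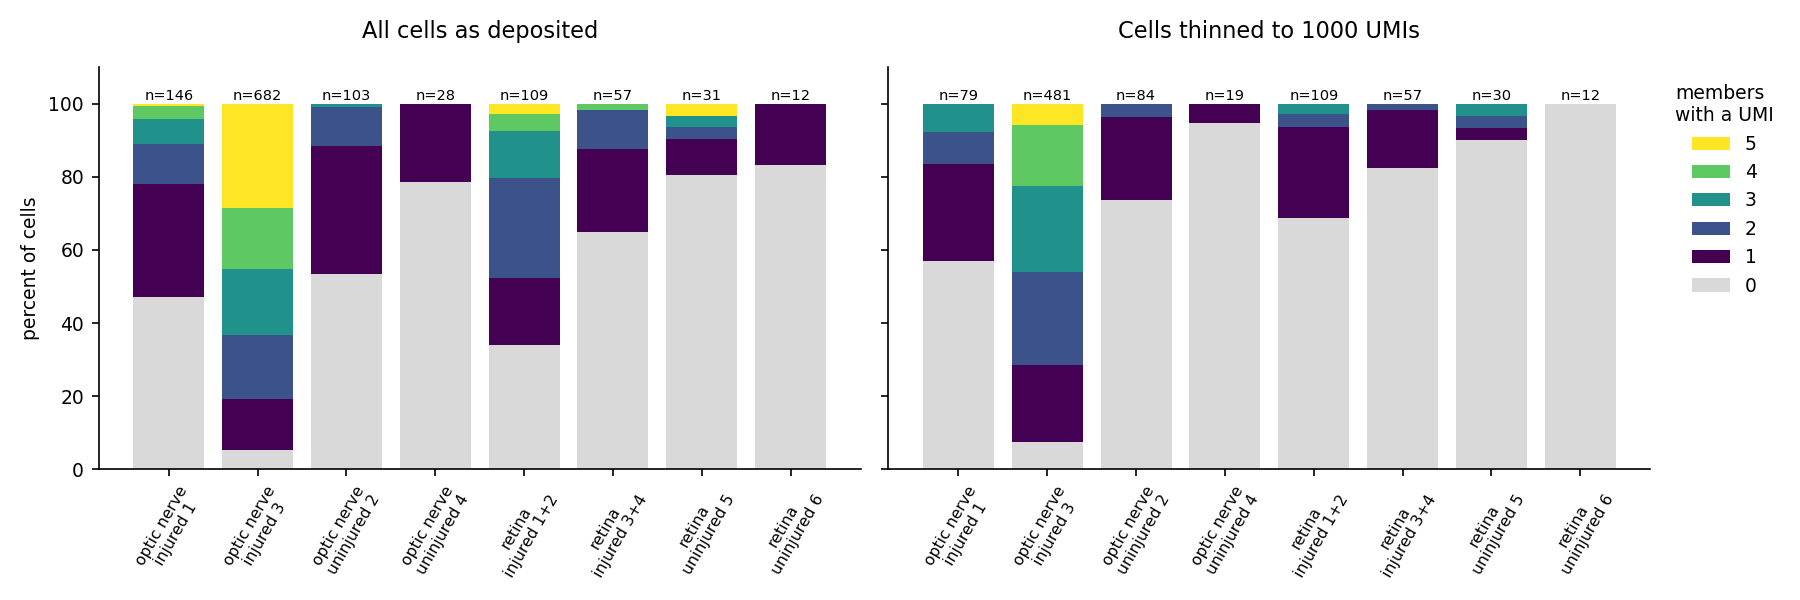
Percent of cells of each library by the number of the 5 members with at least 1 UMI, for cells as deposited on the left and cells thinned to 1000 UMIs on the right, with the number of cells above each bar. In injured optic nerve library 3 the cells with 3 or more members made up 63.3% as deposited and 46.2% when thinned, above every other library.

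Pairs of members occurred together somewhat more often than the product of their shares within library 3 gives, by 1.07 to 1.40 times as deposited and 1.07 to 1.38 times when thinned. In the thinned cells the pair of Gpnmb and Lgals3 had the highest ratio, with 102 cells holding both against 74.0 from the product, and Lgals3 and Fabp5 followed with 124 against 91.9. Spp1 was in 80.2% of all 481 thinned cells, which limits how high the ratio of its pairs can go. Of the 178 thinned cells with Gpnmb, 92.1% also held Spp1. Of the 386 thinned cells with Spp1, 42.5% held Gpnmb, against 37.0% of all 481. These are cells of 1 library that share its mixture of clusters and its free RNA, so the ratios describe that library.

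Within libraries the members kept company with different genes. The mean of the within-library Pearson correlations of ln values across cells, over the 5 libraries with at least 50 cells, is given here as a description, and these genes share the depth of the cell. For Spp1 the highest means were with Capg, an actin-capping protein gene (0.32), Ccl6, a chemokine gene (0.30), and Cxcl14, a chemokine gene (0.30). Lgals3 came highest with Anxa2, an annexin gene (0.30), then with the member Fabp5 (0.27), Cyba, an NADPH oxidase subunit gene (0.27), and Lyz2, the lysozyme gene of myeloid cells (0.27). Fabp5 came highest with the member Lgals3 (0.27), then with Cd63, a tetraspanin gene of lysosomes (0.25), Ftl1, a ferritin gene (0.25), and Akirin1 (0.24). For Gpnmb, with 3 libraries that held it, the members Lgals3 (0.30) and Igf1 (0.27) came first, then, with the gene model Gm1673 passed over, Vat1 (0.25), the lysosomal protease gene Ctsd (0.24) and Dkk2 (0.24). Igf1 came highest with Mdfic (0.25), Tmem259 (0.24) and Acsl5 (0.24), and each of the 3 was highest in the injured retina pool of samples 3 and 4 (0.79, 0.61 and 0.59), where 2 cells held Igf1.

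Genes of the same pathways were read from lists, chosen by role, beside the members. Of the osteopontin receptor genes 0 of 6 tested were called in the optic nerve. There 0.566% of all genes were called, so a count of 0 in a small list says little. In the retina 3 of 5 were called higher after injury, where 9.99% of genes were called higher: the integrin genes Itga4, with 78.1 and 90.1 CPM in the injured pools against 14.01 and 17.6 CPM in uninjured libraries 5 and 6 (log2 fold change 2.42, edgeR adjusted p = 0.0233), and Itgb1 (1.21, 0.0317), and Cd44, with 44.3 and 51.5 CPM in the injured pools against 0 UMIs in both uninjured libraries (edgeR adjusted p = 0.0152). Without the non-myeloid cells Itgb1 had a log2 fold change of 1.04 (edgeR adjusted p = 0.0812), and Cd44 and Itga4 had too few UMIs to be tested. None of the 3 was called without uninjured library 5, and only Itgb1 was called without either injured pool. On the insulin-like growth factor axis, the receptor gene Igf1r had 77.4 and 80.4 CPM in injured retina against 21.0 and 17.6 CPM in uninjured retina (log2 fold change 1.95, edgeR adjusted p = 0.0416), and the adapter gene Irs2 80.2 and 80.4 CPM against 21.0 and 17.6 CPM (1.98, 0.0387). These were the 2 axis genes tested in retina, and neither was called when any 1 of the 4 retina libraries was left out. Without the non-myeloid cells Irs2 was called (2.07, edgeR adjusted p = 0.0253) and Igf1r was not (1.67, 0.0696). In optic nerve 0 of 3 axis genes were called. Of the galectin genes and their binders 0 of 5 in optic nerve and 0 of 4 in retina were called, and of the MITF and TFE factor genes 0 of 3 and 0 of 1. Beside these counts stand 0.566% of all genes called in optic nerve and 19.7% in retina.

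Among genes of fatty acid binding and storage, Lpl, which encodes lipoprotein lipase, was the 1 of 9 called higher in injured optic nerve, beside 0.359% of all genes. It had 442 and 952 CPM in injured libraries 1 and 3, against 39.8 and 35.7 CPM in uninjured libraries 2 and 4 (difference of mean ln values 0.80 ± 0.17, limma adjusted p = 0.0335). Lpl was not called without injured library 3, without either uninjured optic nerve library, or without either injured retina pool. The cholesterol transporter genes Abca1 and Abcg1 were the 2 of 5 called higher in injured retina, beside 9.99% of all genes (log2 fold changes 2.07 and 3.35, edgeR adjusted p = 0.0135 and 0.0240). Abca1 was called also when any 1 retina library was left out, and Abcg1 was called only without uninjured library 6. Of the other secreted repair factors 0 of 9 were called in optic nerve, beside 0.566% of all genes. In retina Pdgfb and Tgfb1 were called lower after injury, 2 of 7 tested beside 9.72% of all genes (log2 fold changes -1.87 and -1.12, edgeR adjusted p = 0.00516 and 0.0303), and both were called also without the non-myeloid cells. Pdgfb lost the call without uninjured library 5, and Tgfb1 lost it without that library or either injured pool.

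Of the activated phagocyte genes, 8 of 22 were called higher and 0 lower in injured optic nerve, beside 0.359% and 0.208% of all genes. For Ctsd the interaction test gave a difference of 3.43 (limma adjusted p = 0.000116). In optic nerve the list's median effect was 0.67 beside -0.02 for all genes. Apoe, the apolipoprotein E gene, differed by 3.09 ± 0.38 (limma adjusted p = 0.000507), with 61114 and 97546 CPM in injured libraries 1 and 3, against 21239 and 15418 CPM in uninjured libraries 2 and 4. Ctsd, encoding cathepsin D, differed by 1.90 ± 0.29 (0.00399), Tyrobp, a signalling adapter gene, by 1.52 ± 0.27 (0.0112) and Itgax, an integrin gene, by 0.42 ± 0.08 (0.0116). The count was 3 of 22 without injured optic nerve library 3 (Apoc1, Apoe and Ctsd), 11 without injured library 1, 1 without uninjured library 2 (Apoe) and 2 without uninjured library 4 (Apoe and Ctsd). It was 5 without the injured retina pool of samples 1 and 2, and 1 (Apoe) in cells thinned to 1000 UMIs. These genes are named for the small counts, after their values were seen. In retina 0 of 17 were called higher and 6 lower after injury, beside 9.99% and 9.72% of all genes. Cd9, a tetraspanin gene, had 661 and 563 CPM in injured retina, against 2360 and 3554 CPM in uninjured retina (log2 fold change -2.21 ± 0.28, edgeR adjusted p = 0.000463). Trem2, a phagocyte receptor gene, fell by 1.47 on the log2 scale (edgeR adjusted p = 0.00283), Cd68, a lysosomal protein gene, by 1.38 (0.00640) and Capg, which is also the gene most like Spp1 across cells, had a log2 fold change of -2.02 (0.00870). Without the non-myeloid cells 5 of 17 were called lower, and without the injured pool of samples 3 and 4 it was 3 of 18. Without uninjured library 5, 4 of 19 were called higher (Apoc1, Apoe, Cd63 and Vim) and 4 lower. Nothing in the labels ties the libraries to animals, so p-values measure the spread between these libraries, which may be technical.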

How the data were processed

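The samples were single-cell libraries of microglia and macrophages from mouse optic nerve and retina, made with a v2 10x 3' kit per the labels. Per the submitters' processing notes, Cell Ranger 1.3, Seurat 4.0.3 and bcl2fastq 2.17.1.14 were used with the mouse build mm10. In 1 table, the authors deposited raw UMI counts for 209 retina cells, and natural log values, ln(1 + 10000 × UMIs of the gene / UMIs of the cell), for 959 optic nerve cells. All 1374534 optic nerve values above 0 gave whole UMIs within 0.01, and the median cell kept 96.6% of its total in the table. Cells were used as the authors filtered them, and no doublet caller was run. The 10 samples gave 8 libraries, since the injured retina samples appear as pools.

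Retina counts were put on the same ln scale for limma 3.58.1 (trend) on mean ln values per library, over genes detected in 10% of cells or more. edgeR 4.0.16 (quasi-likelihood, TMM) was used on summed retina counts. p-values were adjusted by Benjamini-Hochberg, with a threshold of 0.05. With 2 libraries a group, an exact permutation test within a tissue cannot reach that threshold. Clusters came from scanpy 1.11.5 (2000 variable genes without the members, 30 components, 15 neighbours, Leiden resolution 0.5) and were named from at least 3 markers among 50 leading genes. Limits for a count of 0 use 3 counts. Alternatives were DESeq2 1.42.0, other scalings and filters, thinning, removal of non-myeloid cells and leaving out each library. Named genes were the members, the 3 genes most correlated with each (predicted gene models, haemoglobin and mitochondrial genes passed over), and up to 4 genes with the smallest p per pathway list. The members, lists and tests were chosen with earlier results of these data known.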

Additional observations from a re-analysis of the deposited data

Results flagged for a closer look

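The difference of mean ln values after injury in optic nerve minus that in retina is given here. By limma's interaction test, which called 5.61% of all genes, this difference was called for 11 genes of the pathway lists. Among activated phagocyte genes these were Ctsd (3.43, limma adjusted p = 0.000116), Tyrobp (2.76, 0.000756), Cd9 (2.63, 0.00304), Trem2 (2.41, 0.00387), Cd68 (1.81, 0.00407), Ctsl (1.8, 0.0213), Ctsb (1.76, 0.0248) and Capg (0.817, 0.0195). Lpl differed by 0.868 (limma adjusted p = 0.0395). The osteopontin receptor gene Itga4 and the receptor gene Igf1r differed the other way, by -0.465 (0.0454) and -0.464 (0.0265). By list the calls were 8 of 22 activated phagocyte genes, 1 of 9 genes of fatty acid binding and storage, 1 of 6 osteopontin receptors and 1 of 3 axis genes. Over all genes the test called 297, but 21 in thinned cells and 28 with no filter. How these 11 genes fared in those settings is not given here. T-like cells made up 20.2% and 42.1% of cells in the injured retina pools and 0 cells of uninjured retina. Without the non-myeloid cells, 6 of the 11 genes were still called. These were Ctsd (2.28, limma adjusted p = 0.00372), Tyrobp (1.65, 0.00692), Cd9 (2.12, 0.00681), Trem2 (1.55, 0.0442), Cd68 (1.36, 0.0260) and Capg (0.801, 0.0279). The calls were lost for Lpl (0.825, limma adjusted p = 0.0668), Ctsl (1.04, 0.131), Ctsb (0.877, 0.223), Itga4 (-0.229, 0.372) and Igf1r (-0.328, 0.101).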

How the results depend on the processing

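No paired analysis was possible because the injured retina samples appear as pools, and optic nerve libraries carry numbers 1 and 3 with injury and 2 and 4 without. Uninjured libraries held as few as 12 cells, which limits the depth behind their values. Over 23 member results and 309 alternatives, 236 kept direction and side of the threshold, 38 lost the call, 16 gained it and 19 changed sign. Only called results could lose a call, and these lost it often. For injury in optic nerve, Spp1 lost it in 8 of 15 alternatives. For injured optic nerve against injured retina, Spp1 lost it in 7 of 14, Gpnmb in 8 of 13, Lgals3 in 9 of 14 and Igf1 in 6 of 14. The cause was not tested.

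Genes called for injury in optic nerve (30) numbered 1 in thinned cells, 0 by edgeR on 4 libraries, 53 by edgeR on 8 libraries, 6 on log2(CPM + 1), 1 with no filter, and 7 to 67 with a library left out. For injury in retina (653) they numbered 341 by DESeq2, 260 thinned, 428 and 415 without the pools of samples 1 and 2 or 3 and 4, and 415 to 699 over all libraries left out. For the interaction (297) they numbered 21 thinned, 72 by edgeR, 57 on log2(CPM + 1), 28 with no filter, 182 without the non-myeloid cells, 157 and 106 without those pools, and 86 to 541 over all. For injured optic nerve against injured retina (713) they numbered 19 thinned, 383 by edgeR, 37 on log2(CPM + 1), 440 with no filter, 197 and 290 without those pools, and 143 to 1085 over all. For uninjured optic nerve against uninjured retina (531) they numbered 106 thinned, 120 by edgeR, 201 on log2(CPM + 1), and 227 to 907 over all.

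Spp1 in retina (-0.08, log2) changed sign by DESeq2 (0.0633), thinned (1.12), in limma (0.28, ln), with no filter (0.0782), without the non-myeloid cells (0.12) and without the pool of samples 1 and 2 (0.25), and ran from -0.93 to 11.64 with 1 library left out. In retina Lgals3 was -0.0931 without that pool and 8.77 without uninjured library 5, and Fabp5 ran from -0.20 to 3.04. With 1 library left out, Fabp5 ran from -0.26 to 0.74 in the interaction and from -0.0577 to 0.94 in injured optic nerve against injured retina, lowest without injured optic nerve library 3 and highest without library 1. Between uninjured tissues, where no member was called, Spp1 was 0.82 on log2(CPM + 1), and Lgals3 was -0.13 and Fabp5 -0.28 by edgeR. With 1 library left out, Spp1 ran from -0.21 to 0.12, Lgals3 from -0.0248 to 0.12 and Igf1 from -0.0801 to 0.14.

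Cells with at least 3 members in injured optic nerve library 3 (63.3%) made up 46.2% thinned to 1000 UMIs, 24.7% thinned to 500, 68.3% without the non-myeloid cells and 43.4% with at least 2 UMIs a gene. In injured optic nerve library 1 (10.96%) they made up 3.17% thinned to 500 and 2.74% with at least 2 UMIs. In the first injured retina pool (20.2%) they made up 2.75% and 0.917% thinned to 1000 and 500, and 7.34% with at least 2 UMIs.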
